A study of Mus musculus with 102 samples.

Results

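Spleens of young adult male mice were compared for the months that follow 3 months of age. Libraries of 5 months (n = 9) and 8 months (n = 8) were pooled to 17 and set against the 7 libraries of 3 months. These are 24 of the 102 samples of the series, and they were chosen by the age in their labels and not by a measured value. A gene was tested where its deposited value reached 10 in at least 5 of the 45 columns of the ageing spleen table, which kept 16243 of 51810 genes.

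Brains and spleens were sequenced at 3, 5, 8, 14, 20 and 26 months, and further spleens came from an mTOR line and its wild types. The purpose of the series, as far as its design text goes, is to set putative anti-ageing interventions in young animals beside age-dependent change. The 5-, 8- and 3-month animals are all labelled WT and male, their titles carry BL6J, and no allele, treatment or agent is given for any of them. Each library carries an animal code of its own, so p-values measure the spread between these libraries, and no label says how the animals were housed or bred. Titles also carry an ET code that the labels do not explain. The 24 libraries hold 16 such codes, and 3 of them occur on both sides of the comparison, in 6 libraries of 5 and 8 months and 3 libraries of 3 months. Whether the code marks a batch is not known here, and a fit with it as a block is given with the results it moves.

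The spleen filters blood in its red pulp, where macrophages clear aged red cells and recycle their iron, and holds B and T lymphocytes in its white pulp. In the mouse the red pulp also keeps producing red cells in adult life, and this production is known to expand under blood loss, infection or stress. A maturing red cell precursor switches on the regulators Gata1, Klf1 and Tal1, builds a spectrin-based membrane skeleton, and fills with haemoglobin. All values are bulk measurements of whole tissue, in which fewer cells of a type and less RNA per cell cannot be told apart.

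The libraries carried the markers of spleen. Over the 24 libraries the B-cell complement receptor Cr2 lay between 3274 and 12977 normalized counts, where a normalized count is the number of reads of a gene divided by the size factor of its library. The T-cell gene Cd3e lay between 169 and 758, and the red pulp macrophage regulator Spic between 149 and 896. In brains of the same 3 ages the medians of Cd3e and Spic were 0. The stromal regulators Tlx1 and Nkx2-5 had medians of 15.5 and 10.4 and each was at 0 in 1 library. Ms4a1, Igkc, Alas2 and Tnp1 were listed at 0 in all 24 libraries, so nothing is drawn from these markers.

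Reads in genes, counted in units of 10 to the power of 6 (M), ran from 3.78 to 8.88 M in the 5- and 8-month libraries and from 3.11 to 9.07 M in the 3-month libraries, with means of 5.79 ± 1.24 and 7.30 ± 2.03 M (SD, n = 17 and 7; exact permutation test over samples, 2-sided p = 0.0373, Benjamini-Hochberg adjusted p = 0.129 over 5 library measures). Malat1, a nuclear RNA, took 2.04 ± 0.55% of reads in the 5- and 8-month libraries and 1.56 ± 0.41% in the 3-month libraries (exact permutation p = 0.0516, adjusted p = 0.129). Of the libraries under 5 M reads, 5 were of 5 months, 0 were of 8 months and 1 was of 3 months. Without those 6, depth differed with an adjusted exact permutation p of 0.0393 (6.30 ± 1.08 M for 5 and 8 months, n = 12, against 7.99 ± 0.92 M for 3 months, n = 6). Depth and age therefore move together in these libraries, and the part of depth in the results below was not tested beyond the fits named there. Replicate 5 of 8 months and replicate 5 of 3 months lay at the low end of the first principal component (17.3% of variance) and had the lowest Malat1 shares, 0.741% and 0.806%. Replicate 6 of 5 months stood alone on the second component and had reads in 16673 genes. Several results below, but not all, are given with and without these 3 libraries.

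**Figure D1:**
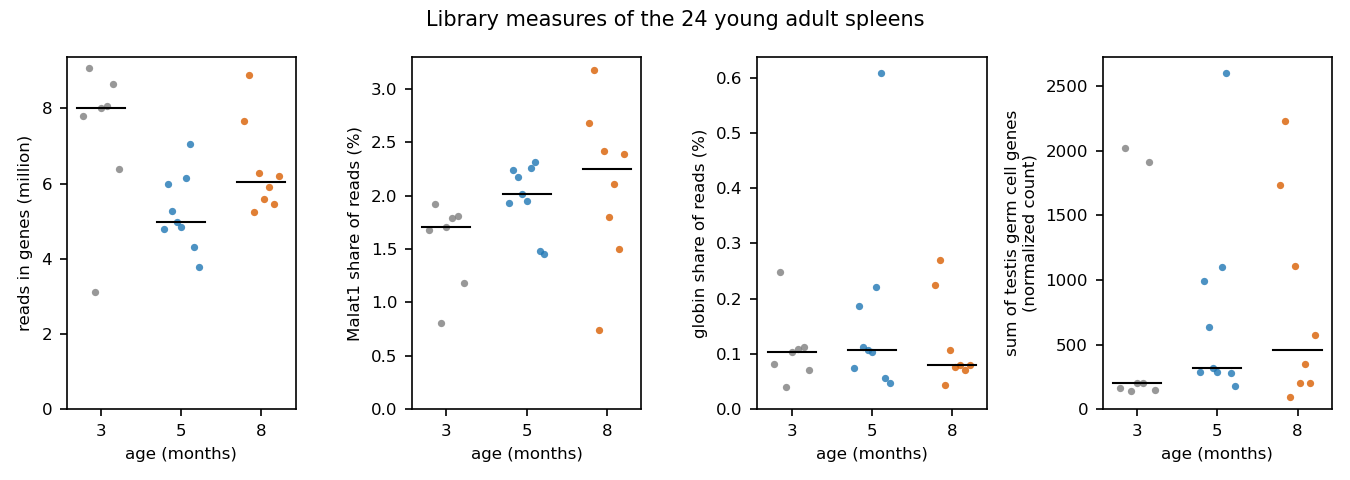
Reads in genes, Malat1 share, globin share and the sum of a list of testis germ cell genes in each library (points), with ages of 3, 5 and 8 months along each axis and the median of each age as a line. Most 5-month libraries lie at or below 6.15 M reads while the 3-month median is 8.01 M, and the globin and germ cell panels show a few libraries far above the rest at every age.

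No gene passed the test between 5 and 8 months and 3 months. With limma on log2 of the value plus 1, 0 of 16243 genes had a Benjamini-Hochberg adjusted p under 0.05 (0% called), and the smallest adjusted p was 0.833. At an unadjusted p under 0.05 there were 563 genes, 3.47% of those tested, of which 364 were higher (2.24%) and 199 lower (1.23%) at 5 and 8 months. In 0 genes did the ranges of the groups separate in either direction. The median log2 fold change over all tested genes was -0.01, with 48% of genes above 0 and 52% below. On the recovered reads, edgeR called 2 genes, both lower and both immunoglobulin kappa variable segments, with 706 genes at an unadjusted p under 0.05. With the ET code of the titles as a block limma called 0 genes, with 430 at an unadjusted p under 0.05, and this fit rests on the 3 shared codes and 7 residual degrees of freedom. DESeq2 called 1 gene, Lmo2, with 485 genes higher and 270 lower at an unadjusted p under 0.05.

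The spread between libraries set how small a difference could be seen. The 95% interval of the log2 fold change had a median half-width of 0.43, and it lay within 1 log2 unit of 0, that is within a 2-fold change, for 12154 of the tested genes (74.8%). Among the 10313 genes with a mean of at least 50 normalized counts this held for 97.0%, and among the 5930 below that mean for 36.3%. Only 33 of the 10313 (0.32%) had an estimate beyond 1 log2 unit.

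Genes of mature B cells and of T cells as a whole had narrow intervals around 0. All 14 tested B-cell genes, all 7 follicular B-cell genes, all 11 marginal zone B-cell genes, all 18 T-cell genes and all 13 naive T-cell genes had intervals within 1 log2 unit of 0, and 0 members of any list were called. The median log2 fold changes of these lists were -0.02, 0.02, -0.12, 0.08 and 0.01. Without the 3 libraries that stood apart the T-cell median was -0.03, the follicular B-cell median -0.10 and the naive T-cell median -0.19. Lef1, a Wnt-pathway factor active in naive T cells, had 625, 1230 and 2928 normalized counts (lowest, median, highest) in the pooled 5- and 8-month libraries and 229, 1600 and 2802 at 3 months (log2 fold change 0.07, 95% interval -0.59 to 0.74). The groups overlapped along most of their range. Lists of rarer or activated lymphocytes were wider: intervals lay within 1 log2 unit of 0 for 13 of 20 effector and memory T-cell genes, 7 of 10 regulatory and follicular helper T-cell genes, 5 of 9 B-cell precursor genes, 10 of 15 natural killer genes and 10 of 14 plasma cell genes. Class I and class II antigen presentation genes likewise lay within 1 log2 unit, 11 of 11 and 10 of 10, with medians of -0.10 and -0.13. Members of the constant region list were wider, with 7 of 10 inside that bound. Ighm, the heavy chain of IgM, had 9037, 20060 and 47398 in the pooled libraries and 12027, 15606 and 72207 at 3 months, and its highest value belonged to replicate 5 of 3 months.

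The group that stood furthest from 0 was the list of red cell precursor (erythroid) genes. Of its 28 genes 27 are in the table and 26 were tested, and 26 of 26 had a log2 fold change above 0, where 48% of all tested genes did. Of these, 16 had an unadjusted p under 0.05 in the higher direction, against 2.24% of all tested genes, and 0 passed the adjusted test. The list's median log2 fold change was 1.17 (all tested genes, -0.01), and its members lay between 0.10 and 2.19. The list was written with earlier results of these spleens known, so its direction is not independent evidence. Its members also vary together: over the 231 pairs of the 22 members other than globins, the median Pearson correlation across the 24 libraries was 0.86, and 0.84 after each age was centred, so the 26 members are not separate observations.

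By library, the mean log2 value of those 22 genes ran from 5.36 over a median of 7.19 to 9.81 at 5 months, from 6.17 over 7.26 to 9.71 at 8 months, and from 4.74 over 6.33 to 6.94 at 3 months. Of the 17 libraries of 5 and 8 months, 11 lay above every 3-month library, 6 lay inside the 3-month range and 0 lay below it. The mean was 7.35 ± 1.23 in the 5- and 8-month libraries and 6.08 ± 0.79 in the 3-month libraries (SD, n = 17 and 7). The 2 highest libraries were replicate 4 of 5 months (9.81) and replicate 2 of 8 months (9.71), and replicate 2 of 5 months (5.36) lay below the 3-month median. The spread inside the older group was thus about as wide as the step between the groups, and the median SE of these genes was 0.50 against 0.21 for all tested genes.

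The 3 regulators of the red cell programme were each at an unadjusted p under 0.05. Gata1, the transcription factor that defines the lineage, had 33.4, 150 and 563 normalized counts at 5 months, 52.5, 98.7 and 727 at 8 months, and 24.2, 45.6 and 117 at 3 months. Of the 17 older libraries, 8 lay above all 3-month libraries and 0 below. Its log2 fold change was 1.38 (SE 0.45, limma adjusted p = 0.970). Klf1, an activator of adult globin and membrane genes, had 5.57, 62.8 and 237 at 5 months, 15.3, 47.6 and 381 at 8 months, and 0, 19.7 and 30.2 at 3 months (log2 fold change 2.01, SE 0.66). Tal1, which binds DNA in a complex with Gata1, had 55.7, 156 and 1372 at 5 months, 105, 154 and 800 at 8 months, and 39.3, 82.3 and 174 at 3 months (log2 fold change 1.08, SE 0.43).

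Genes of the membrane skeleton and the anion exchanger had 5 of 5 at an unadjusted p under 0.05 and a median log2 fold change of 1.45. Ank1 encodes ankyrin, which ties spectrin to the membrane, and lies at chr8:22974844-23150497 on the plus strand (GENCODE M21 on GRCm38). It had 34.4, 121 and 474 normalized counts at 5 months, 63.2, 118 and 1166 at 8 months, and 9.92, 30.6 and 97.4 at 3 months. All 17 libraries of 5 and 8 months lay above the 3-month median and 10 lay above all 3-month libraries. Its log2 fold change of 2.15 (SE 0.48, 95% interval 1.17 to 3.13) gave the smallest p of all genes, 9.61e-05, with a limma adjusted p of 0.833. The spectrin gene Sptb had a log2 fold change of 1.26, the protein 4.2 gene Epb42 1.99, and the anion exchanger Slc4a1 1.29.

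The surface glycoproteins and Rh proteins also had 5 of 5 members at an unadjusted p under 0.05, with a median of 1.44. Rhag, the Rh-associated ammonium transporter, had 10.6, 87.0 and 776 at 5 months, 44.9, 81.9 and 605 at 8 months, and 1.98, 32.2 and 44.4 at 3 months. In 14 of 17 older libraries it was above every 3-month library, and its log2 fold change was 2.19 (SE 0.62). Rhd, an Rh protein of the red cell surface, had a log2 fold change of 1.44, the blood group protease Kel 1.79 and Ermap 1.41. Of the 5 channel, enzyme and other genes 3 had an unadjusted p under 0.05. These were the carbonic anhydrases Car1 and Car2 at 1.41 and 1.05, and the water channel Aqp1 at 0.93. Trim10 stood at 1.07 (interval -0.11 to 2.25) and Tspan33 at 0.60 (interval -0.01 to 1.21).

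Globin and iron genes were closer to 0 than the rest of the list. The 4 globins had log2 fold changes of 0.29 (Hba-a1), 0.31 (Hba-a2), 0.10 (Hbb-bs) and 0.25 (Hbb-bt), each with a 95% interval that held 0. Hba-a1 and Hba-a2 are near-identical copies, so reads between them are uncertain. Globin reads made up 0.145 ± 0.137% of reads in the 5- and 8-month libraries and 0.109 ± 0.067% in the 3-month libraries (exact permutation p = 0.613). The transferrin receptor Tfrc had a log2 fold change of 0.52 (interval -0.06 to 1.10), the mitochondrial iron importer Slc25a37 0.44, ferrochelatase Fech 0.33 and the erythropoietin receptor Epor 0.68 (interval -0.77 to 2.12), and 0 of these 4 had an unadjusted p under 0.05. The list of iron and haem handling, which covers recycling by macrophages, had a median of -0.06 (0.03 without the 3 libraries that stood apart), with 1 of 13 members, Blvrb, at an unadjusted p under 0.05 (log2 fold change 0.49).

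**Figure D2:**
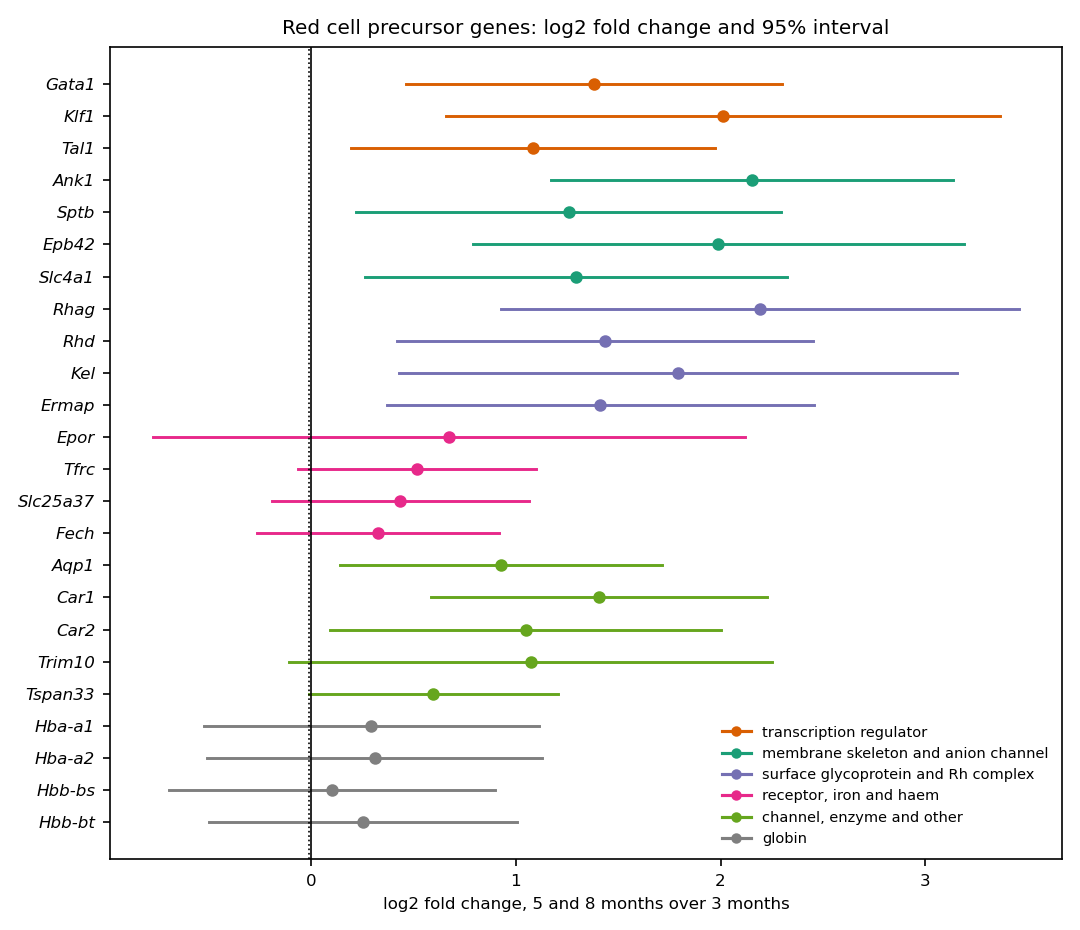
Log2 fold change of 5 and 8 months over 3 months (horizontal axis, points) with its 95% interval (lines) for 24 of the 26 tested red cell precursor genes, grouped by role. A solid line marks 0 and a dotted line the median of all tested genes, -0.01. Every point lies right of 0, from 0.10 for Hbb-bs to 2.19 for Rhag, and the 4 globins form the lowest group.

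Without the 3 libraries that stood apart, 26 of 26 genes were above 0, 18 had an unadjusted p under 0.05 and the median was 1.31. Without the 6 libraries under 5 M reads the median was 1.44, with 17 genes, and with Malat1 as a covariate it was 1.21, with 18. When each of the 24 libraries was left out in turn the median stayed between 0.99 and 1.34, the count of genes at an unadjusted p under 0.05 between 11 and 18, the count above 0 at 25 or 26, and 0 genes of the list were called. With the ET code as a block 26 of 26 were above 0, the median was 2.42 and the count was 17. That fit rests on the libraries of the 3 shared codes. At 3 months these are replicates 2, 4 and 6, whose means of the 22 genes (4.74, 5.30 and 6.11) lay below the median of that age, 6.33. Replicate 6 shares its code only with replicate 4 of 5 months, the highest library (9.81). The larger median therefore depends on which libraries share a code. With all 45 ageing spleens in the fit, the median was 1.17 and the count was 7.

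Promoter sequences of the list are shown as a description. Gata1, the lineage's defining factor, reads a short motif with the core GATAA. Windows of 300 bases, 250 before and 50 after the gene start, come from RefSeq on GRCm38.p6 and are written 5′ to 3′ on the strand of the gene, with GATAA or its reverse complement TTATC in capitals. The windows of the 4 list members with the smallest p that the reference table holds follow, chosen after their values were seen. They are Rhag (chr17:40810899-40811198, plus strand), Epb42 (chr2:121036828-121037127, minus strand), Gata1 (chrX:7967861-7968160, minus strand) and Klf1 (chr8:84901732-84902031, plus strand).
Rhag: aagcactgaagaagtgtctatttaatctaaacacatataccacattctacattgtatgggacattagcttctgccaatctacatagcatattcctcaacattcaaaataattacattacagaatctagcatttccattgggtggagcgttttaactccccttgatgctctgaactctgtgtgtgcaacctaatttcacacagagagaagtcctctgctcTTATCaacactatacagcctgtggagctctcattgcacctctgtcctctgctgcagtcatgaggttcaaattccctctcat
Epb42: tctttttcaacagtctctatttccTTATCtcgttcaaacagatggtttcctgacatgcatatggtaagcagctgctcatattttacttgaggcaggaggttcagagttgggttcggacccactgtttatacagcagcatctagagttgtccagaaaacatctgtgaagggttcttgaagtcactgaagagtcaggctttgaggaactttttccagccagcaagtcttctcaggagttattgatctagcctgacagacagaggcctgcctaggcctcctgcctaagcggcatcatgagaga
Gata1: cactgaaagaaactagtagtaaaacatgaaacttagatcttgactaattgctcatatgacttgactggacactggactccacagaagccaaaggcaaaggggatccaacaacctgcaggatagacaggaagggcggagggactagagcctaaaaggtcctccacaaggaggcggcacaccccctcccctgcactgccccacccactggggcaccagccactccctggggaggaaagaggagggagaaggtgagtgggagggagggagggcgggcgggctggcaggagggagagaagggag
Klf1: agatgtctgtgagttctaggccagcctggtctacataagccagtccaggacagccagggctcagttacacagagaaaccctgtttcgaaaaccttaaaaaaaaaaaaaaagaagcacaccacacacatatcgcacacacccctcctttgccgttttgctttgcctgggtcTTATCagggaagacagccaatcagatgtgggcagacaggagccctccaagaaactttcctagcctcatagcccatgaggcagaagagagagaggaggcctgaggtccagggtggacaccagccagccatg
Rhag, Epb42 and Klf1 each hold 1 match, and Gata1 holds 0 in this window. Of the 21 full windows of list members, 14 hold GATAA on either strand (66.7%), against 25.4% of 32851 RefSeq promoters. The CACCC motif, or GGGTG on the other strand, which Klf1 is known to bind, is in 18 of the 21 (85.7%), against 57.5% of all. The list was written from genes known in red cell precursors, so these shares follow from that choice and say nothing about the difference between ages. A match is a description of letters and not of a bound site.

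**Figure D3:**
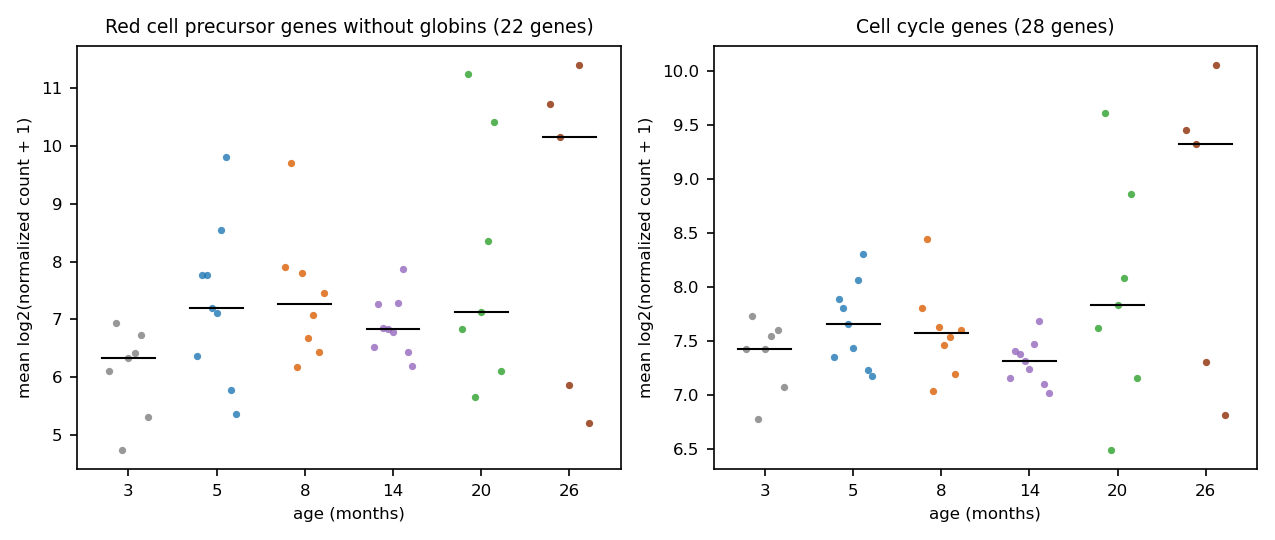
Mean log2 value of the 22 red cell precursor genes without globins (left) and of the 28 cell cycle genes (right) in each of the 45 ageing spleens (points), with the median of each age as a line. The medians of the left panel at 3, 5 and 8 months are 6.33, 7.19 and 7.26, and the libraries of 20 and 26 months spread from 5.20 to 11.4.

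At later ages the same genes did not follow one direction. The mean of the 22 genes was 6.89 ± 0.51 at 14 months (n = 9), 7.96 ± 2.15 at 20 months (n = 7) and 8.67 ± 2.91 at 26 months (n = 5). The 14-month spleens ran from 6.19 to 7.87 with a median of 6.83, while at 26 months 3 of 5 libraries were above 10 and the other two below 6. Ank1 had medians of 85.6, 82.4 and 858 at 14, 20 and 26 months. These values are a description, and the step from 3 months to later ages was not tested here.

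Genes other than the list were named by the smallest p in each direction, and none passed. Lmo2, a bridging factor of the Gata1 and Tal1 complex in blood progenitors, was close to 0 in all young libraries of 3 months. It had 1.74, 26.9 and 90.6 normalized counts at 5 months, 0.682, 17.6 and 139 at 8 months, and 0, 3.03 and 4.20 at 3 months. Of the 17 older libraries, 14 exceeded every 3-month library, and 3 lay within the 3-month range. Its log2 fold change was 2.77 (SE 0.62, interval 1.51 to 4.04, limma adjusted p = 0.833), and DESeq2 gave 3.73 with an adjusted p of 0.00268, the single setting in which a named gene passed. Over all 40 alternative settings its log2 fold change lay between 1.89 (pseudocount 5) and 3.73. Medians at 14, 20 and 26 months were 11.5, 5.33 and 42.5, and the brain median was 0 at 5 and 8 months and at 3 months.

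Pdcd1lg2, the ligand PD-L2 that restrains T cells through PD-1, had the least spread of the named genes that stood higher. It had 78.0, 101 and 135 at 5 months, 60.8, 100 and 138 at 8 months, and 47.1, 66.5 and 79.4 at 3 months. In 15 of 17 older libraries the value lay above all 3-month libraries, and the log2 fold change was 0.65 (SE 0.15, interval 0.34 to 0.96, limma adjusted p = 0.864). At 14, 20 and 26 months its medians were 92.6, 56.8 and 83.8. Tmod1, a capping protein of the short actin filaments in the red cell skeleton, had 7.93, 17.6 and 119 at 5 months, 13.1, 22.6 and 290 at 8 months, and 0.992, 6.56 and 21.2 at 3 months (log2 fold change 2.04, SE 0.52). Slc25a21, a mitochondrial carrier of oxodicarboxylates, stood at 87.2, 378 and 2005 at 5 months, 91.3, 299 and 2416 at 8 months, and 25.8, 83.5 and 261.97 at 3 months (log2 fold change 2.004, SE 0.52). Btnl10, a butyrophilin-like gene, had 5.28, 110 and 527 at 5 months, 25.2, 74.3 and 462 at 8 months, and 1.98, 26.9 and 62.1 at 3 months (log2 fold change 2.45, SE 0.65). The 2 libraries with the highest red cell mean were replicate 4 of 5 months and replicate 2 of 8 months. They also held the highest values of their age for Ank1, Lmo2, Tmod1, Slc25a21 and Btnl10, but not for Pdcd1lg2.

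On the other side, Ccl24 had the smallest p. It encodes eotaxin-2, a chemokine that attracts eosinophils and is made by macrophages, and lies at chr5:135569937-135573049 on the minus strand. It had 0, 3.24 and 9.75 normalized counts at 5 months, 0, 2.22 and 10.4 at 8 months, and 4.75, 15.1 and 22.5 at 3 months. Of the 17 older libraries 12 lay below all 3-month libraries. The log2 fold change was -1.93 (SE 0.51, interval -2.98 to -0.88, limma adjusted p = 0.970), and -1.14 with a pseudocount of 5. Its median at 26 months was 28.2, above that of every younger age.

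Eng, the TGF-beta co-receptor endoglin of endothelium and macrophages, lies at chr2:32646595-32682669 on the plus strand. It had 118, 129 and 212 at 5 months, 100, 186 and 274 at 8 months, and 176, 225 and 563 at 3 months (log2 fold change -0.70, SE 0.20, interval -1.11 to -0.29). The median was lowest at 5 months, 9 of 17 older libraries lay below all 3-month ones, and the medians of 14, 20 and 26 months were 337, 453 and 238. The 3-month value of 563 belonged to replicate 5. With each of the 24 libraries left out in turn the log2 fold change of Eng lay between -0.79 and -0.51. Its promoter window (chr2:32646345-32646644, plus strand, RefSeq on GRCm38.p6) is the window shown for the genes that stood lower, and it holds 0 GATAA and 4 CACCC matches.
Eng: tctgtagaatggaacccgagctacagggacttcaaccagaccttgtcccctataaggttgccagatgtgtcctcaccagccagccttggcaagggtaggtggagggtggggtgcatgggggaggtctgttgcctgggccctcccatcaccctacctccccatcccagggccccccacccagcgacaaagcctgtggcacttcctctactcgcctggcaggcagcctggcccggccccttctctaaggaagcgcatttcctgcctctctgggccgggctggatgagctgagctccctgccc
Itgax encodes CD11c, the integrin of dendritic cells. It had 224, 327 and 444 at 5 months, 266, 296 and 576 at 8 months, and 387, 448 and 599 at 3 months, and 13 of 17 older libraries lay below all 3-month ones (log2 fold change -0.46, SE 0.14). With Malat1 as a covariate its estimate was -0.25. Rgs2, a brake on G protein signalling, had 532, 619 and 733 at 5 months, 575, 638 and 842 at 8 months, and 638, 818 and 1277 at 3 months (log2 fold change -0.36, SE 0.11). Gdf6, a ligand of the BMP family, had 3.35, 31.1 and 70.6 at 5 months, 7.67, 22.1 and 94.7 at 8 months, and 29.4, 70.3 and 221 at 3 months (log2 fold change -1.49, SE 0.46, and -0.98 with Malat1 as a covariate). The zinc finger gene Zfp354a was near the floor, with medians of 1.10 at 5 months, 2.28 at 8 months and 6.73 at 3 months (log2 fold change -1.53, SE 0.47, and -0.78 with a pseudocount of 5). For Gdf6 and Zfp354a the highest 3-month values, 221 and 15.9, also belonged to replicate 5. With each of the 24 libraries left out in turn, Gdf6 lay between -1.71 and -1.24 and Zfp354a between -1.84 and -1.33. With the ET code as a block, which left 0 of the 12 named genes past the test, Ank1 stood at 3.37, Slc25a21 at 3.09 and Btnl10 at 4.19. In that fit Eng stood at -0.37, Rgs2 at -0.16, Itgax at -0.29 and Zfp354a at -0.64, each nearer to 0. Ccl24 stood at -2.34 and Gdf6 at -1.73, each further from 0. These estimates rest on the libraries of the 3 shared codes.

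**Figure D4:**
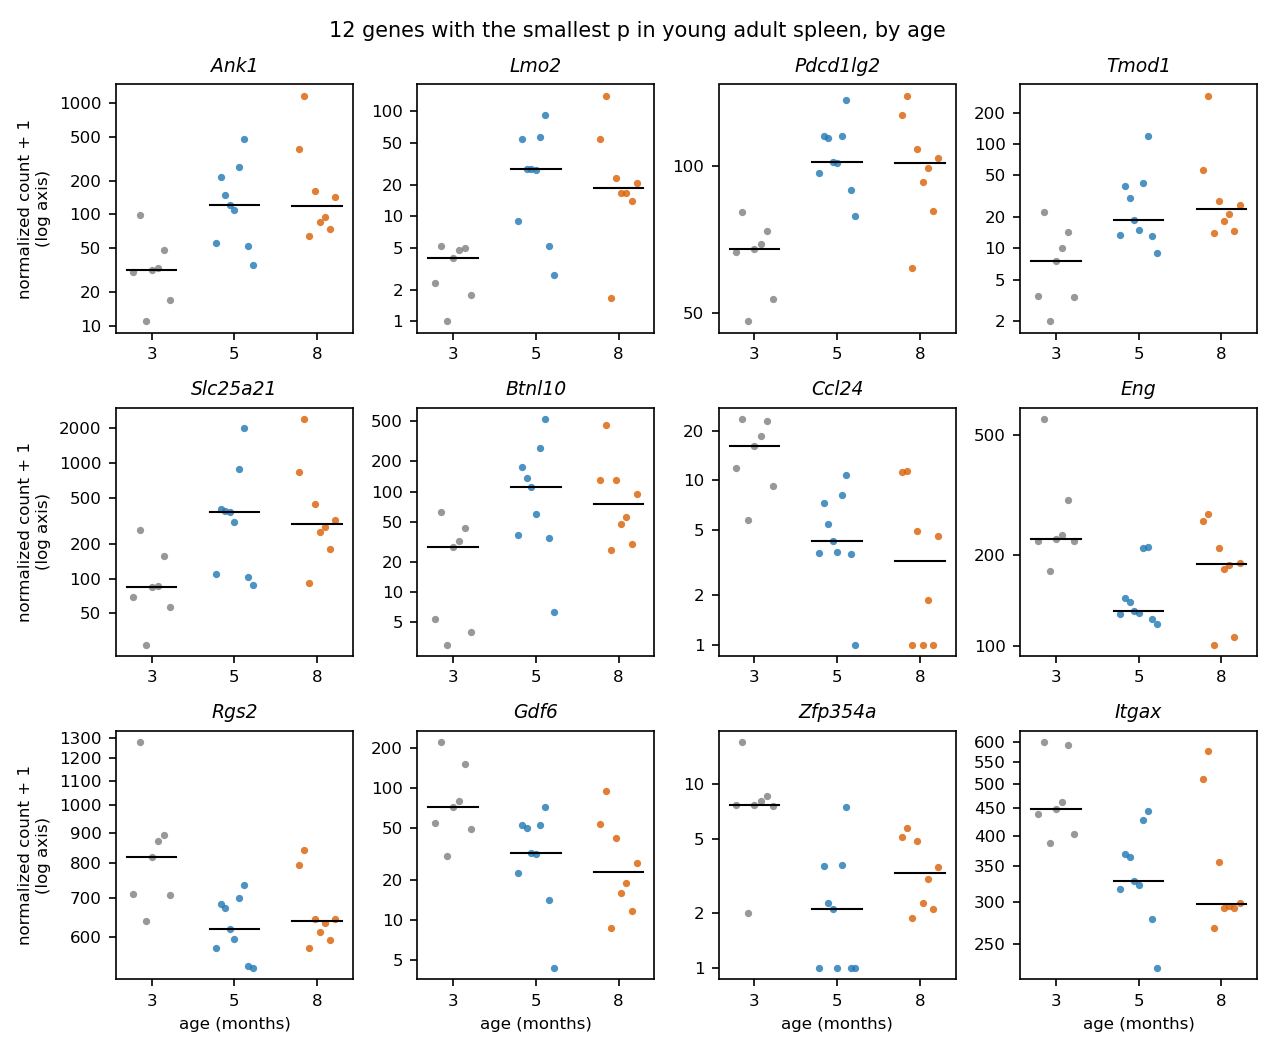
Normalized count plus 1 on a log axis in each library (points) at 3, 5 and 8 months for the 12 named genes, with the median of each age as a line. The 6 panels from Ank1 to Btnl10 stand higher at 5 and 8 months and the 6 from Ccl24 to Itgax stand lower, and the ages overlap in each of the 12 panels. For Lmo2 14 of the 17 older libraries lie above all 3-month points.

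Genes of dividing cells stood slightly higher. Of 28 cell cycle genes 26 were above 0 (48% of all tested genes were), and the median log2 fold change was 0.27. An unadjusted p under 0.05 was seen in 3 (2.24% of all tested genes in that direction). By library, the list mean was 7.63 ± 0.39 in the older group and 7.37 ± 0.33 at 3 months (SD, n = 17 and 7). Of the 17 older libraries 6 lay above every 3-month library and 11 lay inside the 3-month range. Tyms, the enzyme that makes thymidylate, had 158, 238 and 331 at 5 months, 121, 214 and 425 at 8 months, and 125, 146 and 189 at 3 months, and 10 of 17 older libraries exceeded all 3-month ones (log2 fold change 0.53, SE 0.18). Cdca8, a subunit of the chromosomal passenger complex, had a log2 fold change of 0.48 and the ribonucleotide reductase subunit Rrm2 0.57. Mki67, the proliferation antigen, had 1449, 2955 and 4178 at 5 months, 1194, 2431 and 7021 at 8 months, and 1292, 1849 and 3210 at 3 months (log2 fold change 0.47, interval -0.01 to 0.94). The mean log2 value of the list was highest in the 2 libraries with the highest red cell precursor mean, replicate 4 of 5 months (8.30) and replicate 2 of 8 months (8.45), and the part of those cells in this list was not tested. The germinal centre list, which holds dividing B cells, had a median of 0.11 with 0 of 9 members at an unadjusted p under 0.05.

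Several immune and stromal lists leaned to the other side by small amounts, and 0 of their members were called. Among all tested genes 52% lay below 0, and 1.23% had an unadjusted p under 0.05 in the lower direction. The B-cell precursor list had a median of -0.39, with 2 of 9 members at an unadjusted p under 0.05 in the lower direction. Dntt, the terminal transferase that adds bases at receptor gene joints, had 10.5, 25.7 and 48.5 at 5 months, 8.35, 16.9 and 24.5 at 8 months, and 25.7, 31.4 and 49.5 at 3 months, and 13 of 17 older libraries were below all 3-month ones (log2 fold change -0.73, SE 0.28). Sox4, a factor of early lymphoid cells, was the other with a log2 fold change of -1.06. Rag1 and Rag2, the recombinase of these cells, were listed at 0 in all libraries. Vpreb3 had a log2 fold change of -0.39 and the interleukin-7 receptor Il7r 0.12.

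Of 15 natural killer genes 13 were below 0, with a median of -0.26 and 2 at an unadjusted p under 0.05. The activating receptor Ncr1 had 33.5, 53.9 and 97.4 at 5 months, 20.2, 39.2 and 79.1 at 8 months, and 43.1, 65.8 and 108 at 3 months (log2 fold change -0.55, SE 0.27), and the granule protease Gzma stood at -0.91. Gzmb, a granule protease of cytotoxic T cells, stood at -1.22, the lowest of the effector and memory T-cell list. That list had a median of 0.07, with 11 of 20 members above 0 and 2 lower at an unadjusted p under 0.05. Perforin, Prf1, was at -0.05 and the receptor subunit Klrk1 at -0.06, with intervals within 1 log2 unit of 0. Of 23 interferon-stimulated genes 19 were below 0, with a median of -0.28 and 2 at an unadjusted p under 0.05, Ifit3 (-0.56) and Rtp4 (-0.52), against 52% and 1.23% of all tested genes. The list median was -0.11 with Malat1 as a covariate. Rtp4, a chaperone of receptors, lay below all 3-month libraries in 13 of 17 older ones. Isg15 and Oas2 were at -0.02 and -0.01, and Rsad2 at 0.45.

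Dendritic cell genes had a median of -0.16, with Itgax and the dead-cell receptor Clec9a (-0.36, SE 0.13) at an unadjusted p under 0.05 among 16. Flt3, the growth factor receptor of the lineage, was at -0.09 and its regulator Zbtb46 at -0.07. Monocyte genes had a median of -0.19, red pulp macrophage genes -0.15 and neutrophil genes -0.05. The red pulp macrophage median was 0.04 without the 3 libraries that stood apart and 0.11 with Malat1 as a covariate. The neutrophil median was 0.11 and 0.14 in these fits, and the monocyte median -0.11 and -0.05. The matrix protein Coch, made by follicular dendritic cells, had 1074, 1436 and 1994 at 5 months, 1040, 1166 and 2056 at 8 months, and 1213, 1741 and 3888 at 3 months (log2 fold change -0.50, SE 0.17). The smooth muscle list had a median of -0.26 and the endothelial list -0.17, each with 2 members at an unadjusted p under 0.05 (Acta2 -0.60 and Tagln -1.04, Cldn5 -0.78 and Kdr -0.54). Without the 3 libraries that stood apart these medians were -0.09 and -0.06, and with Malat1 as a covariate -0.08 and -0.08. Replicate 5 of 3 months had the highest list mean of the 24 libraries in both lists. In Acta2, Kdr and Cldn5 the highest values, 1162, 886 and 546, were of 3 months. Ribosomal protein genes were below 0 in 31 of 32 with 0 at an unadjusted p under 0.05, at a median of -0.13.

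Megakaryocyte and platelet genes had a median of 0.18, with Nfe2 (0.85), a factor shared with red cell precursors, and Alox12 (0.60) among 19 at an unadjusted p under 0.05 (2.24% of all tested genes in that direction). Regulatory and follicular helper T-cell genes had a median of 0.19, with the regulatory T-cell factor Ikzf2 at 0.63 (SE 0.25) and Foxp3 listed at 0 in all libraries. The haematopoietic progenitor list, Lmo2 included, had a median of 0.00 over members from -1.06 (Sox4) to 2.77 (Lmo2). Of its 15 members Lmo2 and Cdk6 (0.32) were higher and Sox4 was lower at an unadjusted p under 0.05, and Kit stood at 0.00 (interval -0.40 to 0.41). The circadian clock list had a median of 0.00 and the immediate early list -0.09, with 0 members of either at an unadjusted p under 0.05.

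**Figure D5:**
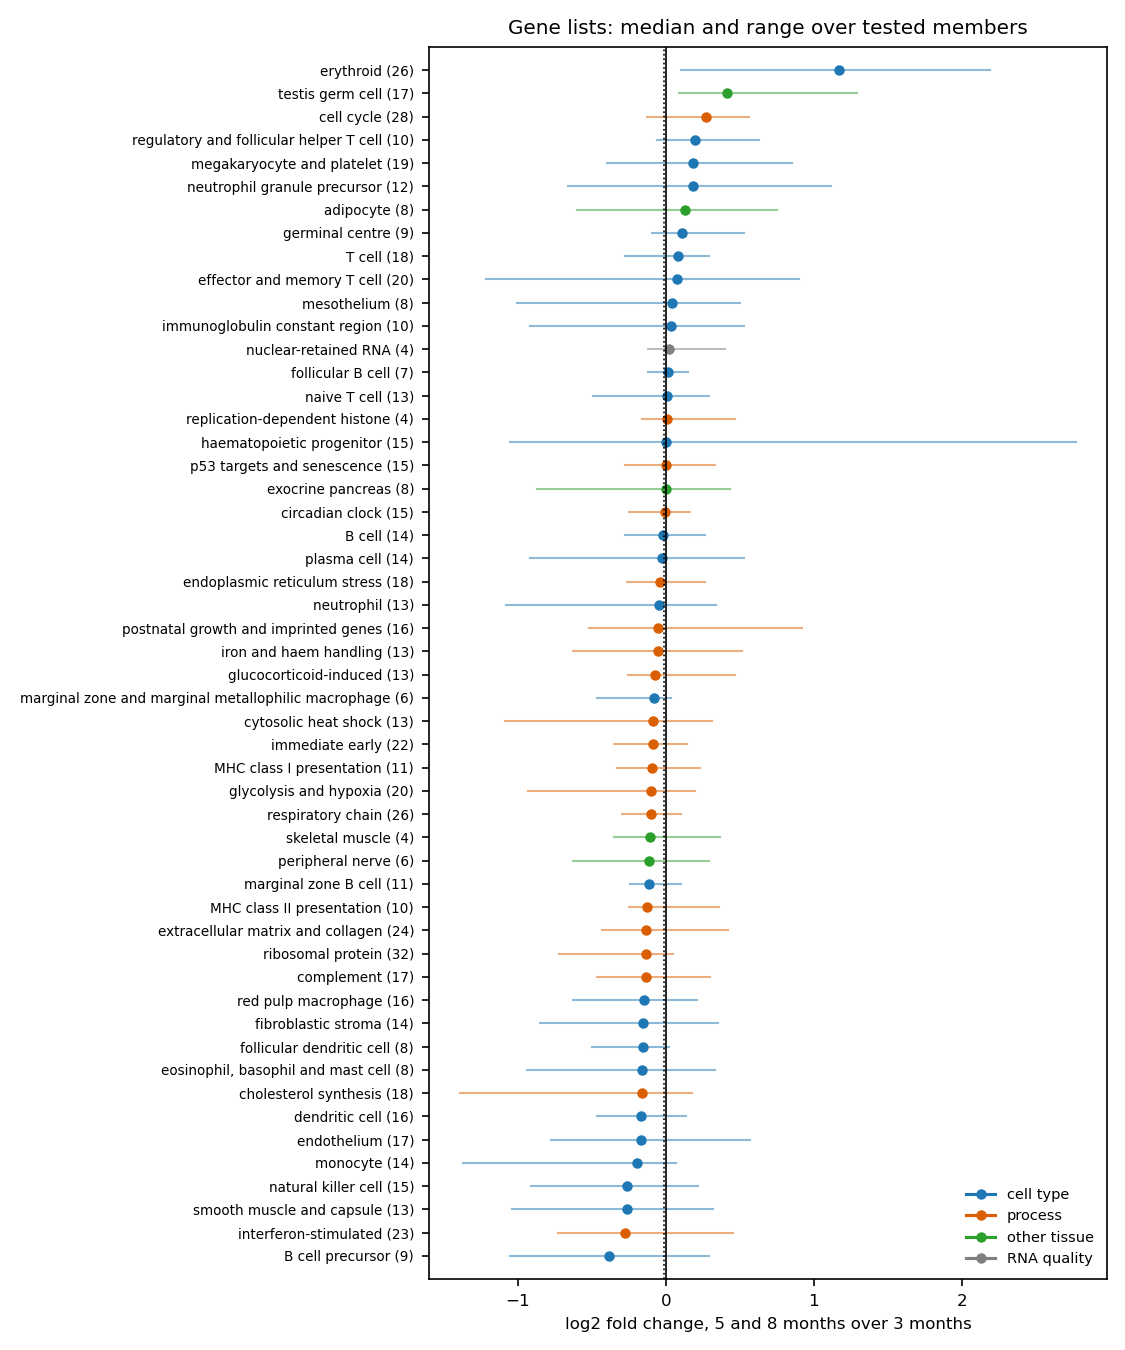
Median log2 fold change of 5 and 8 months over 3 months (points) and the range over tested members (lines) for each gene list with at least 4 tested genes, whose number stands in brackets. The solid line is 0 and the dotted line the median of all tested genes. The red cell precursor list (erythroid) is at 1.17, the testis germ cell list at 0.41, the cell cycle list at 0.27 and the B-cell precursor list at -0.39, with all other medians between.

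Each age on its own gave the same number of calls as the pool. From 1 mean per age, limma called 0 of 16243 genes at 5 against 3 months, with 663 at an unadjusted p under 0.05 (4.08%, with 2.28% higher and 1.8% lower). At 8 against 3 months 0 genes were called, with 404 (2.49%, with 1.46% higher and 1.03% lower), and at 8 against 5 months 0 were called, with 378 (2.33%, with 1.39% higher and 0.936% lower). edgeR called 0 genes in each of the 3 (748, 464 and 336 at an unadjusted p under 0.05) and DESeq2 called 0 (809, 524 and 378). These comparisons share libraries, so their values are given side by side only. The red cell precursor list had a median log2 fold change of 1.17 at 5 against 3 months and 1.21 at 8 against 3 months, and Ank1 stood at 1.97 and 2.36. Between 8 and 5 months Ank1 stood at 0.39 and Lmo2 at -0.09.

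The test of 5 against 3 months turned on 1 library for Pls1, an actin bundler. It had 87.7, 122 and 200 normalized counts at 5 months and 48.6, 52.5 and 156 at 3 months, where replicate 5 held the 156. Its log2 fold change was 0.98 (limma adjusted p = 0.939), and 1.199 without replicate 5 of 3 months, with an adjusted p of 0.0232. At 8 months it had 51.3, 91.7 and 127 (8 against 3 months, log2 fold change 0.42). Later medians were 121, 139 and 124 at 14, 20 and 26 months. This gene was chosen after its values were seen, because it is the 1 gene that this setting called.

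High values of antibody variable segments belonged to few libraries. Of 79 tested heavy chain and 78 tested kappa chain variable segments, 23 and 13 had at least 1 library with 100 or more normalized counts and 10 times the median. At 3 months the 16 such heavy chain values lay in 2 libraries and the 8 kappa chain values in 1, replicate 5. At 5 and 8 months, 12 and 6 such values lay in 8 and 6 libraries. Some segments were high in more than 1 library. Ighv5-4 had 682 in replicate 5 of 3 months, and 316 and 325 in replicates 5 and 6 of 8 months. The segments that edgeR called lower were Igkv4-61 (log2 fold change -4.78, adjusted p = 0.0246) and Igkv8-27 (-3.87, adjusted p = 0.0355). Igkv4-61 had no more than 25.0 in any library of 5 or 8 months and 1703 in replicate 5 of 3 months, and Igkv8-27 had at most 159 at 5 or 8 months and 4785 in that same 3-month library. The median of Igkv4-61 was 6.60 at 5 months, 8.03 at 8 months and 5.88 at 3 months, so the values behind the calls lie in that 1 library, and limma placed both at log2 fold changes of -1.22 and -1.19 with intervals that held 0. Replicate 6 of 5 months carried 241 of Ighv1-11, whose median over the 24 libraries was 2.49, and replicate 5 of 8 months carried 1438 of Ighv3-6 against a median of 142.

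Transcripts of testis germ cells were read in these spleens. A list of them, chosen after values were seen, summed to between 91.8 and 2602 normalized counts in the 5- and 8-month libraries and between 141 and 2024 in the 3-month libraries, with medians of 347 and 199 (exact permutation p of the means = 0.836). Prm2, a protamine that packs sperm DNA, ran from 3.91 to 367 in the older group and from 17.2 to 272 at 3 months, while its brain median was 0. All 17 tested members were above 0 (48% of all tested genes were), with a median log2 fold change of 0.41. Of them 1 had an unadjusted p under 0.05 (2.24% of all tested genes did in the higher direction) and 0 were called. The sum was above 1000 in libraries of all 3 ages. The list median was -0.23 with Malat1 as a covariate. With the germ cell list as a covariate limma called 0 genes, and the red cell precursor list kept a median of 1.23. The sum of pancreas genes was highest in replicate 5 of 5 months (855), where Pnlip reached 195 and Cpa1 76.6, and at 3 months it reached 268 in replicate 5. Its medians were 68.2 in the 5- and 8-month libraries and 65.5 in the 3-month libraries. The part of these transcripts in the results was not tested otherwise.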

How the data were processed

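Per the labels' protocols, tissue was flash frozen, RNA was isolated with TRI-Reagent and cleaned up, and libraries were built from total RNA with a TruSeq kit and a ligation-mediated method. Alignment to GRCm38 with HISAT2 2.1.0, and use of DESeq2 under R 3.5.1, SAMtools, bcl2fastq 2.20 and cutadapt, are recorded in the submitters' processing notes. The counter and annotation are not given in the sources used here. The deposited signal values are normalized: each library's reads per symbol were scaled by a single size factor by the authors. Undoing this scaling gave whole reads for 100% of values (tolerance 0.01). Mitochondrially encoded genes had no reads.

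Genes with a value of 10 in at least 5 of 45 columns entered limma 3.58.1 (R 4.3.3, mean-variance trend) on log2 of the value plus 1, with 1 mean for the 17 libraries of 5 and 8 months and 1 for the 7 of 3 months. The moderated test was 2-sided, adjusted by Benjamini-Hochberg over 16243 genes, and called under 0.05. A fold change on this scale understates low genes. edgeR 4.0.16 and DESeq2 1.42.0 ran on recovered reads. Library measures used exact permutation tests over samples (SciPy 1.17.1). Scripts were tested on simulated data. Intervals cover the spread between these libraries. Named genes are the 6 with the smallest p in each direction, since fewer than 6 were called, leaving out pseudogenes, predicted and Y-linked genes, and variable segments of antibodies and T-cell receptors. Other list members are given as values. Some genes are not reported here by name and stay in the counts and medians of their lists. Gene lists and comparisons were chosen with earlier results of these data known. The germ cell list, its covariate, the Malat1 covariate, the ET code block and the fit without 3 libraries were chosen after seeing the data. The closest pair of libraries still differed by 1.95 times the variance that read sampling gives, so all 24 were counted separately.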

Additional observations from a re-analysis of the deposited data

Results flagged for a closer look

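In 63 groups of libraries (21 measures at 3 ages each) a single library stood far from the others in 10. Chance flags about 1 in 20 where measures are fixed in advance. The measures here included genes picked for their test results, among them Pls1 and the kappa chain segments, and a germ cell list chosen after values were seen. The 10 therefore cannot be set against that rate. Replicate 2 of 8 months had 290 normalized counts of Tmod1, the highest of its age and also one of the libraries with the highest red cell precursor mean. Replicate 6 of 5 months was at 0 for Ccl24 and had reads in 16673 genes, both the lowest of its age. Replicate 2 of 3 months had 0.992 of Zfp354a, the lowest of its age.

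Replicate 5 of 3 months held the highest values of its age for Pls1 (156), Igkv4-61 (1703) and Igkv8-27 (4785). The globin share was highest in replicate 4 of 5 months, 0.609% of reads, and at 3 months in replicate 1, 0.249%. The sum of testis germ cell genes reached 2602 in replicate 8 of 5 months.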

How the results depend on the processing

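The count of called genes in the pooled comparison was 0 in every setting run except DESeq2 (1 gene, Lmo2, log2 fold change 3.73) and edgeR (2 genes). In these settings the number of named genes that passed was 1 with DESeq2 and 0 otherwise. For 5 against 3 months it was 0 in all settings but 1 gene, reached without replicate 5 of 3 months, so leaving out single libraries gave 0 to 1. Leaving out single libraries gave 0 calls throughout for 5 and 8 pooled, 8 against 3 and 8 against 5 months. Among the alternative values of the 12 named genes 477 kept direction and side of the threshold, 1 (Lmo2 with DESeq2) newly passed and 0 reversed. All 371 list medians, 53 lists in 7 alternatives, moved by less than the spread of the list mean between libraries. That bound allows a change of sign. The sign held in 1 of 7 alternatives for the haematopoietic progenitor list, 2 for naive T-cell, 3 for neutrophil and 5 for testis germ cell genes. For the red cell precursor list it held in 7 of 7. The red cell precursor count at an unadjusted p under 0.05 was 16, and 11 to 18 with single libraries left out, but 7 with all 45 spleens in the fit. Of the 5 library measures 0 passed in all 24 libraries and 1, depth, without libraries under 5 M reads (difference -1.69 M). No paired analysis was possible because the labels give the ages no shared replicate numbers. The ET code of the titles, unexplained in the labels and tried as a block after the data were seen, gave 0 called genes. The median interval of low genes limits what can be seen: 36.3% of genes under a mean of 50 had an interval within a 2-fold change. In the array-weighted fit 1067 genes had an unadjusted p under 0.05 against 563, and without a filter 939.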

Other observations

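Genes outside the lists stood near the top of the ranking, and they are named here after their values were seen. Pkhd1l1, a membrane protein of the fibrocystin family, had medians of 46.0 at 5 months, 47.4 at 8 months and 16.9 at 3 months, and 12 of 17 older libraries lay above all 3-month libraries (log2 fold change 1.30, SE 0.39). Its medians at 14, 20 and 26 months were 38.8, 137 and 342. Wipf3, a regulator of actin through WASP, had medians of 13.4 at 5 months, 16.5 at 8 months and 6.94 at 3 months, and 47.5, 48.5 and 68.5 at 14, 20 and 26 months (log2 fold change 1.22, SE 0.39). Mid1, a ubiquitin ligase of microtubules, had medians of 119, 127 and 80.8 at 5, 8 and 3 months, with 14 of 17 older libraries above all 3-month ones (log2 fold change 0.64, SE 0.18).

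Further genes known from red cell precursors but not on the list also stood near the top of the ranking. They were picked from it after their values were seen, so their direction is not independent evidence. Hemgn, a nuclear protein of blood progenitors, had a log2 fold change of 1.72, Sox6, a regulator of adult erythropoiesis, 1.71, the adducin gene Add2 1.79 and Cldn13, a claudin, 2.02. Of the 40 genes with the smallest p in the higher direction, 4 were on the red cell precursor list, and of the 40 in the lower direction 0 were. Of all 16243 tested genes 26 are on that list. It was written with earlier results known and its members vary together, so the 4 are not separate observations. No gene of either ranking passed the limma test.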
